A study of Caenorhabditis elegans with 18 samples.

Results

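The 8 genes smg-1 to smg-8 carry the smg name of the nonsense-mediated mRNA decay factors of Caenorhabditis elegans. For smg-8 the role given below is known from human cells. All 8 were found by symbol among the 20191 protein-coding genes of the deposited gene count table. The deposited table of intron reads held 100 intervals of these genes out of 106818. RNA came from whole worms of 1 genotype. The allele mog-7::degron::gfp puts a degron tag on the splicing factor MOG-7, and the transgene sun-1p::TIR1::mRuby makes the plant auxin receptor TIR1 in the germline under the sun-1 promoter. All groups, the ethanol controls included, carry both. The young adult hermaphrodites were synchronized and had not yet formed embryos.

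There were 3 groups of 6 poly-A-selected, strand-specific libraries: auxin for 2 h, auxin for 1 h, and ethanol for 2 h as the control. The 6 batches (I, II, V, VII, VIII, X) gave 1 library per group each. The labels give batches but do not say that libraries came from separate cultures, so p-values measure the spread between these libraries, which may be technical. The control for both auxin groups is the 2 h ethanol group, a 1 h ethanol group was not analysed here, and neither were worms without the degron. What auxin does by itself and what the loss of MOG-7 does therefore cannot be told apart.

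Nonsense-mediated decay removes mRNAs on which a ribosome stops too early, such as mRNAs with an early stop codon or with an intron left in. SMG-2, the worm UPF1, is an RNA helicase that is recruited together with SMG-3 (UPF2) and SMG-4 (UPF3), and the kinase SMG-1 phosphorylates it. SMG-5, SMG-6 and SMG-7 act after that step: SMG-6 is an endonuclease that cuts the mRNA, and SMG-5 and SMG-7 are needed for SMG-2 to lose its phosphate. SMG-8 is known from human cells as a partner and regulator of the SMG1 kinase. Worms that lack smg genes are viable, and the genes got their name from suppressor mutations that also affect the genitalia.

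On the WBcel235 build, smg-1 (WBGene00004879) lies on the minus strand of chromosome I from 6900949 to 6913579, has 7599 exonic bases and has 41 of the intervals. The smg-2 gene (WBGene00004880) is at I:1176473-1190829 on the plus strand, and its 8 intervals are 368 to 2154 bases long. The smg-5 gene (WBGene00004883) is compact, on the minus strand of chromosome I from 6734028 to 6736161, with 4 intervals of 61 to 108 bases. The smg-6 gene (WBGene00004884) lies on the plus strand of chromosome III from 2473854 to 2486622 with 16 intervals of 51 to 1101 bases. The smg-4 gene (WBGene00004882) is on the minus strand of chromosome V from 9775935 to 9777745 and has 3 intervals. The smg-7 gene (WBGene00004885) is on the minus strand of chromosome IV from 6740531 to 6742443 and has 6. The smg-8 gene (WBGene00010551) is on the plus strand of chromosome II from 14441409 to 14447233 and has 8.

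The smg-3 gene (WBGene00004881, chromosome IV, minus strand, 6362395 to 6373093) has 14 intervals and overlaps the protein-coding genes Y73B6BL.47 and Y73B6BL.270 on the other strand and 2 noncoding RNA genes on its own strand. Whether the intron reads were counted by strand is not given in the sources used here, so reads of smg-3 and of its overlapping neighbours may not be told apart there. The same limit holds for smg-2, which overlaps the noncoding RNA gene Y48G8AL.20 on the other strand. All 100 intervals match annotated introns, and they run from 21 to 2279 bases with a median of 79.

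The libraries had 18939877 to 28290693 gene counts in the auxin 2 h group, 20451185 to 30747645 in the auxin 1 h group and 18153020 to 27453865 in the ethanol group. Over all genes, intron counts per 1000 gene counts were 31.3 to 38.1 after 2 h of auxin, 25.6 to 29.98 after 1 h and 10.2 to 10.9 with ethanol. The mRNA of the targeted gene mog-7 was at 42.6 ± 2.71 CPM after 2 h of auxin, 39.5 ± 3.21 CPM after 1 h and 39.5 ± 1.75 CPM with ethanol (SD, n = 6 each), and the degron acts on the protein, so this level does not check the depletion. Germline markers summed to 3055 to 3457 CPM after 2 h, 3421 to 3684 CPM after 1 h and 3521 to 3901 CPM with ethanol. Of 16 germline markers, 10 were lower and 6 not called at 2 h against ethanol, and 2 were higher and 5 lower at 1 h. For this and the other marker lists, the shares over all genes tested were 14.5% higher and 20.1% lower at 2 h. At 1 h they were 3.62% higher and 6.93% lower. Of 10 oocyte markers 6 were lower at 2 h and edgeR called 0 at 1 h (2 at an unadjusted p under 0.05, 0 by DESeq2), with summed levels of 3685 to 5443 CPM after 2 h of auxin, 4290 to 5904 CPM after 1 h and 4049 to 6111 CPM with ethanol. Somatic markers, of which 3 of 13 were higher and 1 lower at 2 h and edgeR called 0 at 1 h (2 at an unadjusted p under 0.05, 1 by DESeq2), summed to 44790 to 58310 CPM after 2 h, 41780 to 53390 CPM after 1 h and 36880 to 53230 CPM with ethanol. Of 9 sperm markers edgeR called 0 at either time, with 0 at an unadjusted p under 0.05 and 0 by DESeq2, and they summed to 283.5 to 407.1 CPM after 2 h, 255.6 to 369.8 CPM after 1 h and 246.4 to 359.6 CPM with ethanol. Of 10 early embryo markers, 8 were under 1 CPM in every group and edgeR called 0 of the other 2 at either time (at 2 h 1 had an unadjusted p under 0.05, and DESeq2 called 0), and the list summed to 8.65 to 11.9 CPM after 2 h, 7.92 to 11.4 CPM after 1 h and 8.45 to 10.4 CPM with ethanol. The part of these marker levels in the results on the smg genes was not tested.

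The mRNA of 7 of the 8 smg genes was lower after 2 h of auxin than with ethanol, and smg-6 was the one that was not called. The largest fall was that of the kinase gene smg-1, whose mean CPM changed by -31.1%. The threshold was an adjusted p under 0.05 from edgeR's quasi-likelihood test with Benjamini-Hochberg adjustment over the 13969 genes tested, of which 34.6% were called, 20.1% as lower. Levels are in CPM, in which the counts of each library are scaled to the same total of gene counts with TMM factors. In whole worms, fewer cells that express a gene and less RNA per cell cannot be told apart.

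The kinase gene smg-1 was at 80.6 to 93.0 CPM (median 88.1) after 2 h of auxin, 93.9 to 118.99 CPM (median 106) after 1 h and 115 to 141 CPM (median 127) with ethanol. The auxin 2 h libraries were all below those of both other groups, while the auxin 1 h and ethanol ranges overlapped. The log2 fold change was -0.54 (SE 0.057) at 2 h, with an adjusted p of 6.725e-07 by edgeR, and -0.25 at 1 h (adjusted p = 0.006294, SE 0.0567). At both times the level was lower in 6 of 6 batches.

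The helicase gene smg-2 was at 75.7 to 93.5 CPM (median 85) after 2 h, 87.6 to 99.5 CPM (median 91.1) after 1 h and 99.6 to 115 CPM (median 105) with ethanol. Every auxin library of either time lay below every ethanol library. The edgeR log2 fold changes were -0.33 at 2 h (adjusted p = 5.073e-05, SE 0.0499) and -0.21 at 1 h (adjusted p = 0.007058, SE 0.0497).

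Both smg-3 and smg-4, whose products bind to SMG-2, were lower as well. The smg-3 gene was at 54.3 to 60.2 CPM (median 59.3) after 2 h, 57.6 to 64.7 CPM (median 59.8) after 1 h and 62.9 to 72.5 CPM (median 68.2) with ethanol. Its auxin 2 h and ethanol libraries did not overlap, and its auxin 1 h and ethanol libraries did. Its fall on the log2 scale was -0.22 at 2 h (adjusted p = 0.0007205 by edgeR, SE 0.044), the smallest of the 7, and -0.18 at 1 h (adjusted p = 0.01221, SE 0.0438). The smg-4 gene was at 45.6 to 57.2 CPM (median 49.3) after 2 h, 54.8 to 57.6 CPM (median 55.7) after 1 h and 58.7 to 67.5 CPM (median 64.3) with ethanol. All of its auxin libraries were below all of its ethanol libraries. Its edgeR log2 fold changes were -0.33 at 2 h (adjusted p = 3.815e-05, SE 0.0487) and -0.19 at 1 h (adjusted p = 0.01515, SE 0.0485).

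Among the genes that act after phosphorylation, smg-5 and smg-7 were lower and smg-6 was not called. The smg-5 gene was at 23.8 to 30.2 CPM (median 27.2) after 2 h, 25.4 to 32.2 CPM (median 29.9) after 1 h and 31.6 to 39.2 CPM (median 33.5) with ethanol. Auxin 2 h and ethanol libraries were apart, and those of auxin 1 h reached into the ethanol range. By edgeR the smg-5 change was -0.34 on the log2 scale (SE 0.0678, adjusted p = 0.0007783) at 2 h and -0.22 at 1 h (adjusted p = 0.03576, SE 0.0674). The smg-7 gene was at 19.8 to 25.2 CPM (median 24.2) after 2 h, 24.6 to 28.9 CPM (median 25.8) after 1 h and 29.0 to 33.8 CPM (median 29.8) with ethanol. No auxin library of smg-7 reached the lowest ethanol library. By edgeR the smg-7 change was -0.40 at 2 h (adjusted p = 6.677e-05, SE 0.0618) and -0.23 at 1 h (adjusted p = 0.01753, SE 0.0613).

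The endonuclease gene smg-6 was at 57.9 to 66.9 CPM (median 61.2) after 2 h, 60.2 to 68.0 CPM (median 63.0) after 1 h and 57.9 to 71.4 CPM (median 64) with ethanol. The 3 groups covered nearly the same range. The edgeR log2 fold change was -0.07 (SE 0.0503, adjusted p = 0.2975, lower in 5 of 6 batches) at 2 h and -0.02 (SE 0.0502, adjusted p = 0.8407, lower in 3 of 6 batches) at 1 h. With the batch as a block, edgeR's adjusted p for smg-6 was 0.061 at 2 h and 0.59 at 1 h, again without a call. Whether smg-6 changed by less than the other 7 genes was not tested.

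The smg-8 gene, whose product is a SMG1 partner in human cells, was at 33.1 to 40.0 CPM (median 35.4) after 2 h, 30.6 to 39.3 CPM (median 35.8) after 1 h and 37.3 to 44.0 CPM (median 42.5) with ethanol. The groups overlapped, with 1 ethanol library, that of batch X, below the others. The edgeR log2 fold changes were -0.23 at 2 h (adjusted p = 0.00566, SE 0.0586) and -0.24 at 1 h (adjusted p = 0.009043, SE 0.0584), each lower in 6 of 6 batches.

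**Figure D1:**
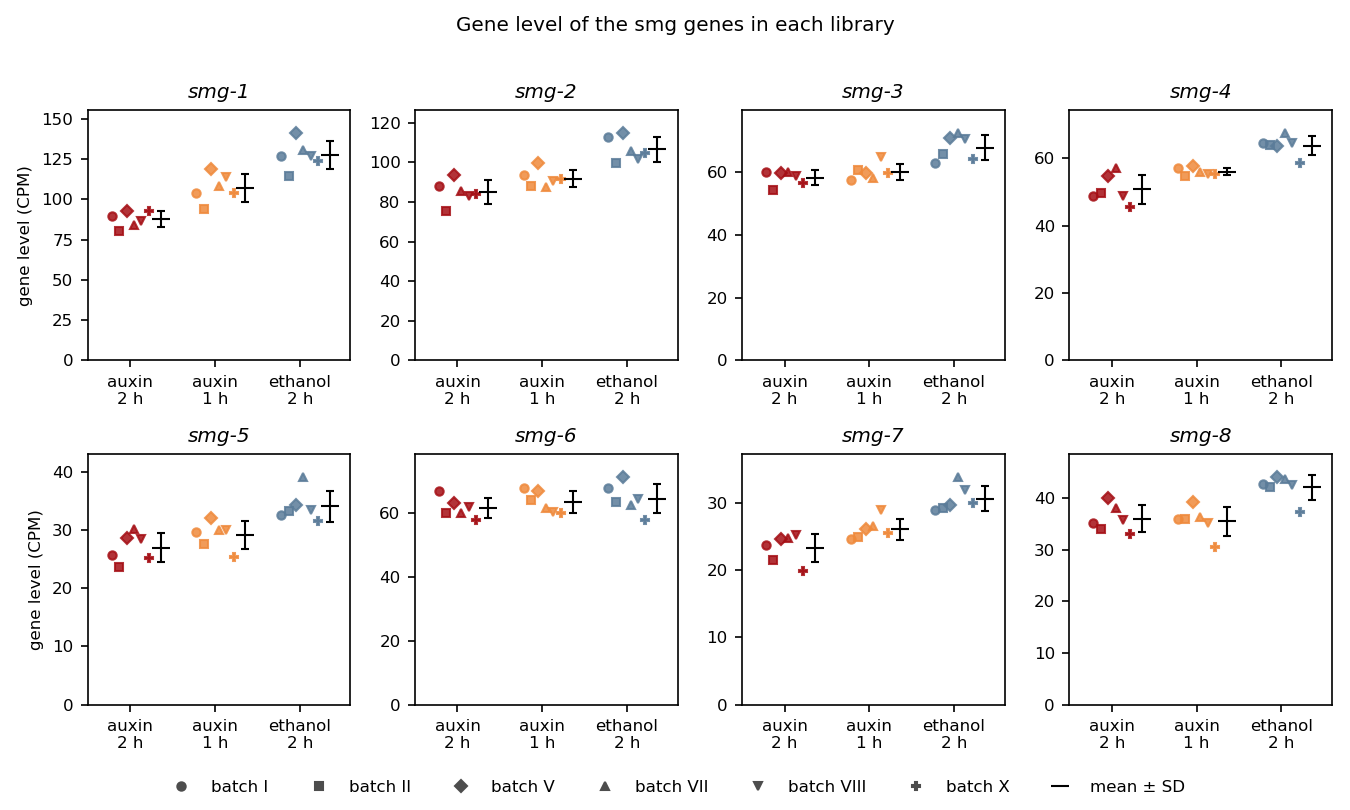
Gene level in CPM (y axis, from 0) of each smg gene in each library (points, with a marker for each batch) for auxin 2 h, auxin 1 h and ethanol 2 h, with the mean and SD of 6 libraries as a bar beside each group. In smg-1 the auxin 2 h libraries reach 93.0 CPM and the ethanol libraries start at 115 CPM, while in smg-6 the groups lie at 57.9 to 66.9, 60.2 to 68.0 and 57.9 to 71.4 CPM.

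At 1 h, 7 of the 8 genes were called lower, all but smg-6, where 10.6% of all genes tested were called, 6.93% as lower and 3.62% as higher. This count depended on single batches: leaving out batch I gave 1 called gene, leaving out VII gave 2 and leaving out VIII gave 4. Over all genes tested, 821, 963 and 822 were then called, against 1474 with all libraries. The 1 h log2 fold changes of the 7 genes stayed between -0.26 and -0.14 whichever batch was left out. With the batch as a block the same 7 genes were called, with edgeR's adjusted p at most 0.000397, where 30.7% of all genes tested were called and 18.2% as lower. The 2 h count was 7 under every one of the 11 alternatives tried, each left-out batch included. The share of all genes called at 2 h in these fits ran from 24.5% with no filter to 56.8% with the batch as a block. The median log2 fold change of the 8 genes was -0.33 at 2 h and -0.22 at 1 h, where the medians over all genes tested were 0.07 and 0.00. Both comparisons use the same ethanol libraries.

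The 7 called members lay in the lower part of the distribution of all genes at 2 h without standing at its end. Of all genes tested, 4.09% had a lower log2 fold change than smg-1 and 7.24% a lower one than smg-7. That share was 9.54% for smg-5, 9.98% for smg-4 and 10% for smg-2. It was 16.6% for smg-8, 16.9% for smg-3 and 32.0% for smg-6.

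**Figure D2:**
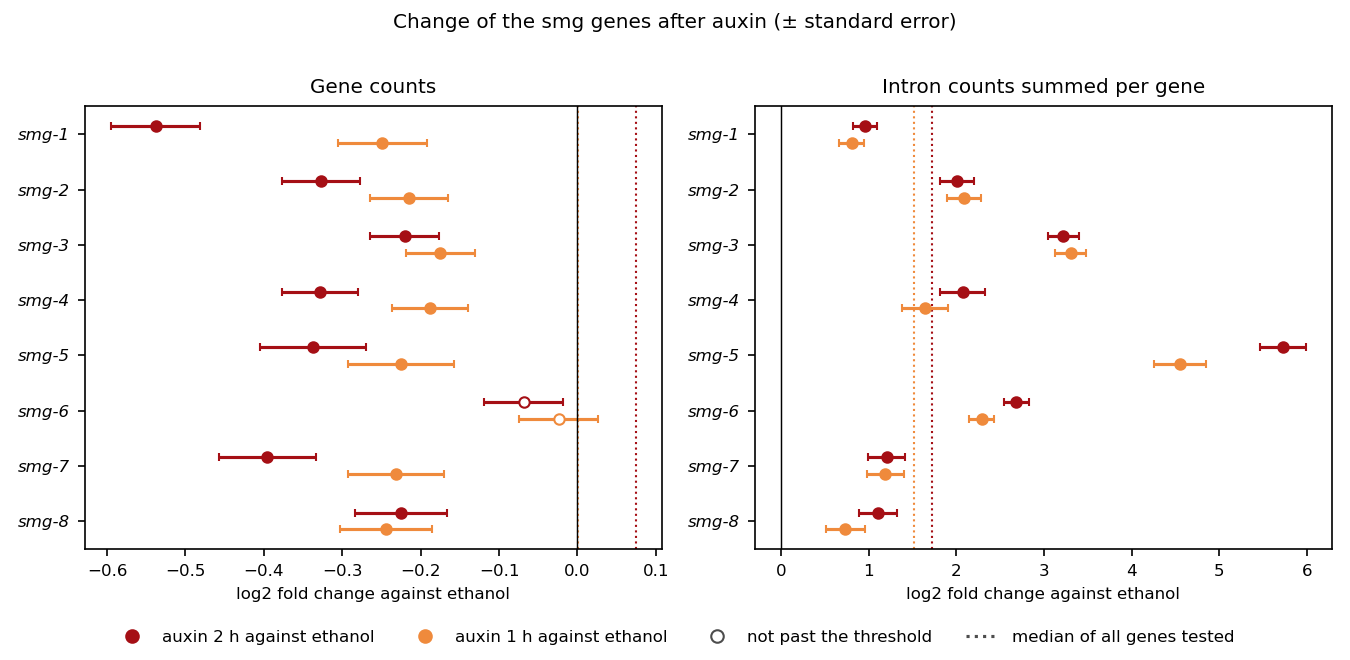
The log2 fold change against ethanol (x axis) of each smg gene at 2 h (above) and 1 h of auxin (below), for gene counts on the left and intron counts summed per gene on the right, with bars of 1 standard error. Filled points passed the threshold and dotted lines mark the medians of all genes tested. The gene counts of all but smg-6 sit between -0.54 and -0.18, and the intron sums between 0.73 and 5.72, where scaling on the intron counts themselves turns smg-1, smg-7 and smg-8 negative.

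Between 2 h and 1 h of auxin, smg-1 was the only member called, where 6.89% of all genes tested were called, 3.95% as lower and 2.94% as higher. The smg-1 change on the log2 scale was -0.29 (adjusted p = 0.00464 by edgeR, SE 0.057), with lower levels at 2 h in 6 of 6 batches. Without a test that passed, the values of smg-4 (-0.14, adjusted p = 0.08432), smg-7 (-0.16, adjusted p = 0.1121), smg-2 (-0.11, adjusted p = 0.1773) and smg-5 (-0.11, adjusted p = 0.3352) were also negative. With the batch as a block, 5 smg genes were called lower, where 32.7% of all genes tested were called in that fit and 16.3% as lower, with edgeR's adjusted p at 0.00281 for smg-2, 0.00316 for smg-4, 0.00523 for smg-7 and 0.0393 for smg-5 beside smg-1. The values of smg-3, smg-6 and smg-8 were -0.05, -0.04 and 0.02, with edgeR's adjusted p at 0.56, 0.6245 and 0.8711.

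Levels of different genes were compared per length, in RPKM, CPM per 1000 exonic bases. The UPF3 gene smg-4 had the highest level, with 37.2 ± 3.15 RPKM after 2 h of auxin, 41.0 ± 0.807 RPKM after 1 h and 46.7 ± 2.11 RPKM with ethanol (SD, n = 6 each). It was the one gene whose libraries did not overlap those of the next gene, smg-2, in any group. The helicase gene smg-2 came second with 18.2 ± 1.27 RPKM after 2 h, 19.6 ± 0.93 RPKM after 1 h and 22.8 ± 1.31 RPKM with ethanol. With ethanol, the order after these was smg-7 (20.4 RPKM), smg-5 (18.8 RPKM), smg-3 (18.3 RPKM), smg-1 (16.8 RPKM), smg-6 (15.4 RPKM) and smg-8 (15.4 RPKM), and each overlapped its neighbour. After 2 h of auxin it was smg-3 (15.7 RPKM), smg-7 (15.5 RPKM), smg-5 (14.9 RPKM), smg-6 (14.7 RPKM), smg-8 (13.2 RPKM) and smg-1 (11.6 RPKM), again with overlapping neighbours. The level of smg-1 was thus sixth with ethanol and eighth after 2 h of auxin, and that of smg-6 seventh with ethanol and sixth after 2 h.

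Across the 18 libraries the members varied together, smg-6 least. Pearson's r between the log2 CPM of pairs without smg-6 was 0.649 to 0.916 over 21 pairs (median 0.806), and in the 7 pairs with smg-6 it was 0.265 to 0.534 (median 0.401). These values are a description, since the libraries share groups, batches and depth. With the mean standardized profile of the members, the 5 genes outside the set with the highest r over 18 libraries were mdt-17 (0.982), nfi-1 (0.978), mis-12 (0.972), slx-1 (0.970) and clk-2 (0.969). Among these, clk-2 also belongs to the list of kinase assembly factors below.

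After 2 h of auxin the intron counts summed per gene were higher than with ethanol for 8 of 8 genes by edgeR when libraries were scaled on gene counts, but when they were scaled on the intron counts 3 were called higher (smg-3, smg-5 and smg-6), 2 lower (smg-1 and smg-8) and 3 were not called. Under that scaling 41.1% of all intron sums were called higher and 44.1% lower at 2 h. At 1 h the same split was 8 higher with scaling on gene counts, and 4 higher (smg-2 besides those 3) and 2 lower (smg-1 and smg-8) with scaling on intron counts. Of the 6795 genes tested in this way 75.6% were called at 2 h, 74.9% as higher and 0.692% as lower, and at 1 h 70.6% were called, 70% as higher and 0.633% as lower, so a call by itself was the usual outcome. Scaling on intron counts moved the median log2 fold change of all intron sums at 2 h to -0.12, against 1.73 with scaling on gene counts. In total the 100 intervals held 3733 counts after 2 h, 3362 after 1 h and 908 with ethanol.

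The largest rise was that of smg-5. Its 4 introns held 153 to 200 intron counts per 1000 gene counts (median 176) after 2 h of auxin, 48.9 to 88.0 (median 74.2) after 1 h and 0 to 5.92 (median 1.80) with ethanol. The 3 groups did not overlap at any point, and the sums over 6 libraries were 639, 312 and 12 counts. The pooled count ratio to ethanol was 55.5 at 2 h (95% exact interval 31.6 to 108) and 24.8 at 1 h (14 to 48.5), and such intervals cover counting error only. By edgeR the log2 fold change was 5.72 at 2 h (adjusted p = 1.28e-22, SE 0.263) and 4.55 at 1 h (adjusted p = 1.306e-17, SE 0.294). The ethanol libraries of smg-5 hold so few intron counts that the gene passed the low-count filter through its auxin libraries, and the fold change depends on that small base.

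The UPF2 gene smg-3 came next. Its intervals held 72.7 to 88.1 counts per 1000 gene counts (median 75.6) after 2 h, 67.7 to 102 (median 73.5) after 1 h and 4.28 to 9.04 (median 7.62) with ethanol. All auxin libraries lay above all ethanol libraries, and the auxin groups covered each other. The edgeR log2 fold changes were 3.22 at 2 h (adjusted p = 4.408e-20, SE 0.177) and 3.30 at 1 h (adjusted p = 2.114e-20, SE 0.175). Without the 4 intervals that overlap an annotated exon of smg-3 or of another gene, an alternative added after the values were seen, the smg-3 changes were 2.83 (adjusted p = 7.8e-17) and 3.02 (adjusted p = 7.34e-18).

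The smg-6 gene, whose mRNA level was not called, showed 98.8 to 117 intron counts per 1000 gene counts (median 107) after 2 h, 60.3 to 97 (median 79.5) after 1 h and 12.4 to 21.0 (median 16.0) with ethanol. The 3 groups were apart. Its edgeR log2 fold changes were 2.68 at 2 h (adjusted p = 5.061e-21, SE 0.138) and 2.29 at 1 h (adjusted p = 2.334e-18, SE 0.14).

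The helicase gene smg-2 had 24.5 to 35.7 intron counts per 1000 gene counts (median 30.6) after 2 h, 23.4 to 36.1 (median 31.0) after 1 h and 3.04 to 8.09 (median 5.93) with ethanol. The UPF3 gene smg-4 had 17.4 to 31.0 (median 27.8) after 2 h, 13.5 to 22.2 (median 17) after 1 h and 2.71 to 8.72 (median 3.76) with ethanol. In both genes every auxin library was above every ethanol library, and the auxin groups overlapped. By edgeR the log2 fold changes of smg-2 were 2.01 (adjusted p = 2.537e-12) at 2 h and 2.08 (adjusted p = 6.82e-13) at 1 h, and those of smg-4 were 2.07 (adjusted p = 1.097e-09) and 1.64 (adjusted p = 4.336e-07). The smg-4 ethanol libraries held 3 to 15 intron counts (median 6), so that sum passed the low-count filter through its auxin libraries. The lowest ethanol libraries of smg-2 and smg-3, with 7 intron counts each, were also under the minimum count of 10.

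The direction for smg-1, smg-7 and smg-8 depended on the scaling. The smg-1 intervals held 46.9 to 71.0 counts per 1000 gene counts (median 63.9) after 2 h, 34.1 to 51.5 (median 44.8) after 1 h and 16.7 to 24.7 (median 22.0) with ethanol, with no ethanol library in the auxin ranges. By edgeR the smg-1 log2 fold changes were 0.96 (adjusted p = 6.957e-08) at 2 h and 0.81 (adjusted p = 2.202e-06) at 1 h with scaling on gene counts, but -0.69 (adjusted p = 5.54e-06) and -0.56 (adjusted p = 0.000105) with scaling on intron counts.

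For smg-7 the intron counts per 1000 gene counts were 37.1 to 78.0 (median 52.6) after 2 h, 33.4 to 56.2 (median 51.2) after 1 h and 12 to 23.5 (median 18.8) with ethanol, again without overlap between auxin and ethanol. Its edgeR log2 fold changes were 1.20 (adjusted p = 2.249e-06) and 1.19 (adjusted p = 2.486e-06), against -0.42 (adjusted p = 0.0705) and -0.17 (adjusted p = 0.461) with scaling on intron counts. For smg-8 they were 24.8 to 46.5 (median 33.7) after 2 h, 16.4 to 33 (median 28.9) after 1 h and 10.9 to 16.4 (median 14.0) with ethanol, and the lowest auxin 1 h library met the highest ethanol library. Its edgeR log2 fold changes were 1.11 (adjusted p = 1.551e-05) and 0.73 (adjusted p = 0.003416), against -0.52 (adjusted p = 0.0236) and -0.63 (adjusted p = 0.00829) with scaling on intron counts. With all intervals and scaling on gene counts, the change in these 3 genes was below the medians of all intron sums tested, 1.73 at 2 h and 1.52 at 1 h. In each gene 1 interval held most of the ethanol reads, 52.1% in smg-1, 64.6% in smg-7 and 56.1% in smg-8. This was not particular to these 3 genes, as intron 1 of smg-4 held 71.1% of the smg-4 ethanol reads. Without the interval that led in smg-1, the smg-1 change was 1.78 at 2 h and 1.39 at 1 h. Such values were not computed for smg-4, smg-7 and smg-8.

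**Figure D3:**
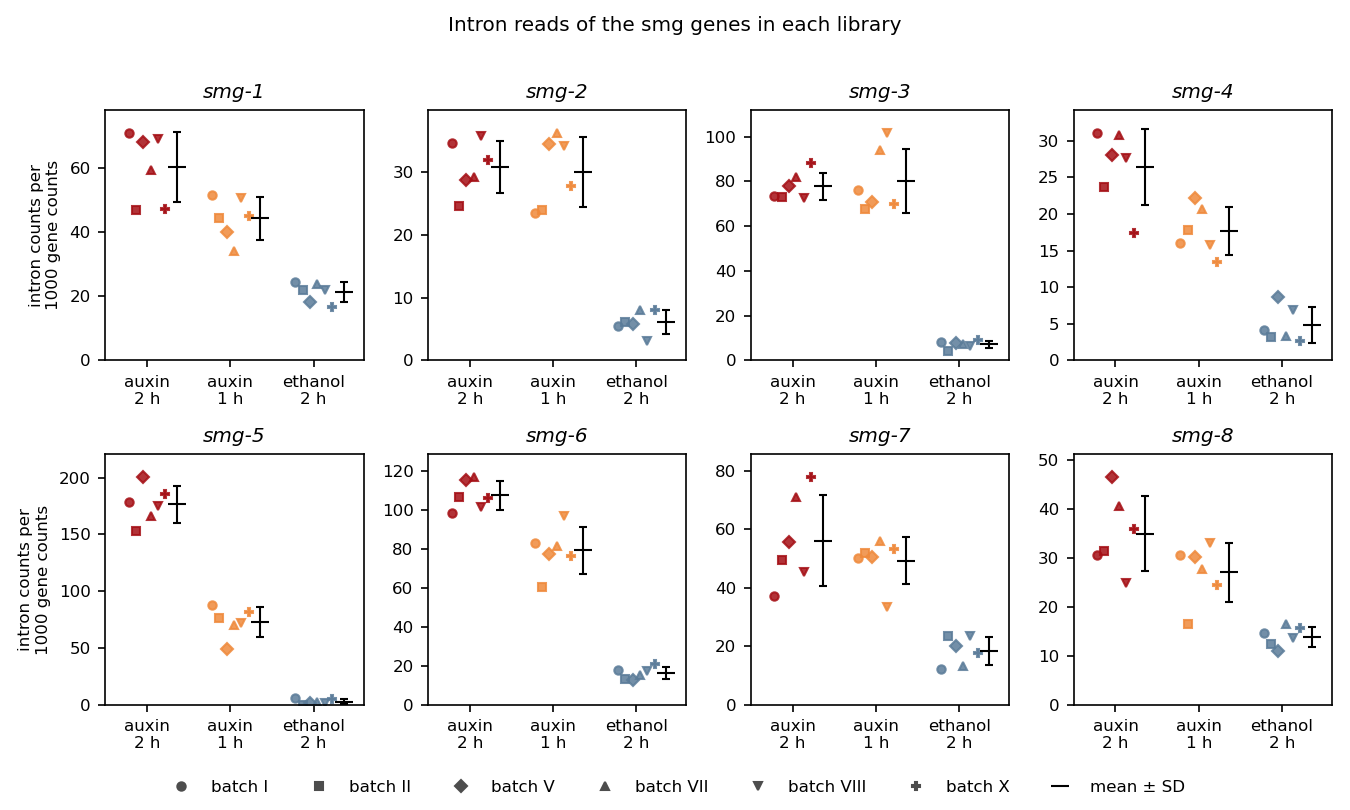
Intron counts per 1000 gene counts (y axis, from 0) of each smg gene in each library (points, with a marker for each batch) for auxin 2 h, auxin 1 h and ethanol 2 h, with the mean and SD of 6 libraries beside each group. In smg-5 the groups lie at 153 to 200, 48.9 to 88.0 and 0 to 5.92, and in smg-8 at 24.8 to 46.5, 16.4 to 33 and 10.9 to 16.4. With scaling on intron counts, smg-8 and smg-1 are called lower than ethanol, and smg-7 has negative log2 fold changes that are not called.

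At 2 h against 1 h of auxin, the intron sums of 2 members were higher, smg-5 by 1.17 on the log2 scale (SE 0.152, adjusted p = 3.092e-07 by edgeR) and smg-6 by 0.40 (SE 0.112, adjusted p = 0.00566). Both were higher in 6 of 6 batches, and among all intron sums 31.2% were called between these groups and 30% as higher. The values of smg-4 (0.43, adjusted p = 0.1095), smg-8 (0.38, adjusted p = 0.1509) and smg-1 (0.15, adjusted p = 0.4149) did not pass. Relative to the host gene's own counts, a fit in which 37.2% of all 6614 intron sums were called and 36% as higher, 4 members passed, smg-1 (0.44, adjusted p = 0.00519) and smg-4 (0.57, adjusted p = 0.0213) besides smg-5 and smg-6. With the batch as a block, where 38.9% of all intron sums were called, smg-4 passed as well (0.45, adjusted p = 0.0401). With scaling on intron counts, smg-5 was still called higher (0.90, adjusted p = 1.11e-05), smg-6 was not called (0.13, adjusted p = 0.351), and smg-3 was called lower (-0.34, adjusted p = 0.024).

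Single introns showed where these reads lay. Only 16 of the 100 intervals had enough counts to be tested: 4 each of smg-5 and smg-6, 3 of smg-3, 2 each of smg-1 and smg-2, and 1 of smg-4. In 10 of the 16, no ethanol library had more than 3 counts, so these passed the filter through the auxin libraries and had to differ. The 4 tested introns of smg-6 and intron 3 of smg-4 had 12 to 27 counts over the whole ethanol group. They too could pass only with the auxin libraries, so their rise helped them to be tested. Intron 14 of smg-1, with 201 ethanol counts, did not depend on this. Of the 16, 15 were higher and 1 lower at 2 h, where 86.5% of the 15325 introns tested were called, 85.1% as higher and 1.37% as lower. With scaling on intron counts, 19 intervals passed the filter, of which 10 were higher and 5 lower at 2 h and 10 were higher and 6 lower at 1 h. Of the 16487 introns tested under that scaling, 50.4% were called higher and 33.1% lower at 2 h, and 49.8% higher and 31.8% lower at 1 h. At 1 h 15 were higher and 1 was not called, where 84.1% of all introns tested were called and 83.2% were called higher. Over all 100 intervals, tested or not, the mean CPM was above that of ethanol in 91 at 2 h and in 87 at 1 h. With ethanol 14 intervals had no count at all, against 0 after 2 h and 2 after 1 h of auxin.

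All 4 introns of smg-5 were higher against ethanol at both times and higher at 2 h than at 1 h, although introns 1 and 2 did not pass between the times with scaling on intron counts (adjusted p = 0.197 and 0.0656 by edgeR). Intron 4 (I:6734869-6734954, 86 bases) had 27 to 39 counts (median 34.5) in the auxin 2 h libraries, 11 to 26 (median 16) in the auxin 1 h libraries and 0 in all 6 ethanol libraries. Against the limit of 3 counts over the ethanol group that is at least 70.6-fold higher at 2 h and at least 32.4-fold higher at 1 h. Intron 3 (I:6735146-6735211, 66 bases) had 34 to 44 counts (median 41.5) after 2 h, 13 to 19 (median 16.5) after 1 h and 0 to 2 (median 0.5) with ethanol. Its pooled ratio to ethanol was 49.8 at 2 h (exact 95% interval 21.1 to 155) and 18.5 at 1 h (7.65 to 58.2).

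Intron 1 of smg-5 (I:6735932-6736039, 108 bases) had 13 to 25 counts after 2 h, 9 to 14 after 1 h and 0 to 2 with ethanol, a pooled ratio of 36.8 at 2 h (12.3 to 182). Intron 2 of smg-5 had 11 to 19, 3 to 15 and 0 to 2 counts in the same groups, a ratio of 23.7 at 2 h (8.95 to 88.9). Between 2 h and 1 h of auxin the edgeR log2 fold changes of introns 1 to 4 were 0.80 (adjusted p = 0.0113), 1.09 (adjusted p = 0.003025), 1.43 (adjusted p = 8.261e-07) and 1.12 (adjusted p = 8.419e-05). Among all introns tested 31.2% were called between these groups, 30.2% as higher and 1.08% as lower, and among the 16 of the members 7 were higher and 1 lower.

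After auxin, the first 3 introns of smg-6 carried the most reads of that gene, while with ethanol intron 11 held the most, 27 counts over the group. Intron 3 (III:2476927-2477604, 678 bases) had 30 to 51 counts (median 38) after 2 h, 20 to 37 (median 22) after 1 h and 0 to 5 (median 3) with ethanol, and every auxin library was above every ethanol library. Its edgeR log2 fold change was 3.86 at 2 h (adjusted p = 1.102e-18, SE 0.285), and at 2 h against 1 h it was 0.72 (adjusted p = 0.002452), or 0.39 (adjusted p = 0.127) with scaling on intron counts. Intron 11 (III:2480813-2481897, 1085 bases) had 8 to 16 counts after 2 h, 5 to 14 after 1 h and 2 to 6 with ethanol. Its log2 fold change was 1.43 at 2 h (adjusted p = 5.036e-05 by edgeR) with scaling on gene counts and -0.71 (adjusted p = 0.052) with scaling on intron counts. Both introns passed the low-count filter through the auxin libraries.

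In smg-3 the longest interval, intron 12 (IV:6365851-6368129, 2279 bases), had 20 to 39 counts (median 26.5) after 2 h, 19 to 39 (median 30) after 1 h and 1 to 2 (median 1.5) with ethanol. It overlaps an exon of a gene on the other strand, so these reads may not all be of smg-3. Its pooled ratio to ethanol was 19 at 2 h (9.77 to 42.3), and intron 7 of smg-3 had a ratio of 35.5 (9.44 to 299) from 68 and 2 counts. In smg-2 the longest interval, intron 7 (I:1185136-1187289, 2154 bases), had 8 to 19 counts (median 12) after 2 h, 9 to 22 (median 15.5) after 1 h and 0 to 1 (median 1) with ethanol. In smg-4, intron 3 (V:9776325-9776662, 338 bases) had 8 to 17 counts (median 13) after 2 h, 5 to 14 (median 9.5) after 1 h and 0 to 4 (median 2.5) with ethanol. The auxin libraries were above the ethanol libraries in each of these introns, which passed the low-count filter through the auxin libraries.

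Intron 14 of smg-1 went the other way. This interval (I:6909042-6909086, 45 bases) held 10 to 27 counts (median 17) after 2 h of auxin, 20 to 55 (median 29.5) after 1 h and 17 to 50 (median 33.5) with ethanol. The groups overlapped, and the auxin 2 h library was lower than the ethanol library in 6 of 6 batches. The edgeR log2 fold change was -0.84 at 2 h (adjusted p = 0.0005564, SE 0.226), -0.09 (adjusted p = 0.701) at 1 h and -0.76 at 2 h (adjusted p = 0.008865, SE 0.227) against 1 h. Relative to the counts of smg-1 itself, which also fell, the 2 h change was -0.30 (adjusted p = 0.196) and no longer passed. In the annotation the last 6 bases of this intron are exon in another smg-1 transcript that uses a different 3′ splice site.

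This 1 interval held 52.1% of the smg-1 intron counts with ethanol, against 15% after 2 h and 28.0% after 1 h of auxin. Without it, smg-1 had 51.3 ± 8.7 intron counts per 1000 gene counts after 2 h, 32.1 ± 7.16 after 1 h and 10.3 ± 1.42 with ethanol (SD, n = 6 each). The smg-1 log2 fold change was then 1.78 (adjusted p = 2.68e-13 by edgeR) at 2 h and 1.39 (adjusted p = 4.05e-10) at 1 h, and at 2 h against 1 h it was 0.39 (adjusted p = 0.0309). This alternative was chosen after the values were seen. The first intron of smg-1 had 6 to 12 counts after 2 h, 1 to 10 after 1 h and 0 to 1 with ethanol, a pooled ratio of 32.3 at 2 h (8.58 to 273).

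Along smg-1 the intron reads after auxin lay mainly toward the 5′ end, with ratios given for scaling on gene counts. Without intron 14, introns 1 to 20 held 458 counts after 2 h, 319 after 1 h and 93 with ethanol, ratios of 5.25 and 3.25 to ethanol. Introns 21 to 41 held 144, 191 and 92 counts, ratios of 1.65 and 1.98. In smg-6, introns 1 to 8 held 586, 452 and 56 counts, ratios of 10.8 and 7.62, and introns 9 to 17 held 311, 296 and 89, ratios of 3.66 and 3.14. In smg-2, introns 1 to 4 held 145, 166 and 43 counts, ratios of 3.58 and 3.69. Its introns 5 to 8 held 206, 242 and 48 counts, ratios of 4.44 and 4.73. Of those 48 ethanol counts, 34 lay in intron 5 alone. Reads of the noncoding RNA gene on the other strand may also be among the smg-2 reads, so no order is given for smg-2. In smg-3, introns 1 to 7 had ratios of 7.22 and 8.73 and introns 8 to 13 ratios of 12.8 and 12.1. Introns 10 to 12 of smg-3 overlap exons of genes on the other strand. Their reads may not all be of smg-3, so these ratios do not give an order for that gene. These stretches were compared after the values were seen and without a test.

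**Figure D4:**
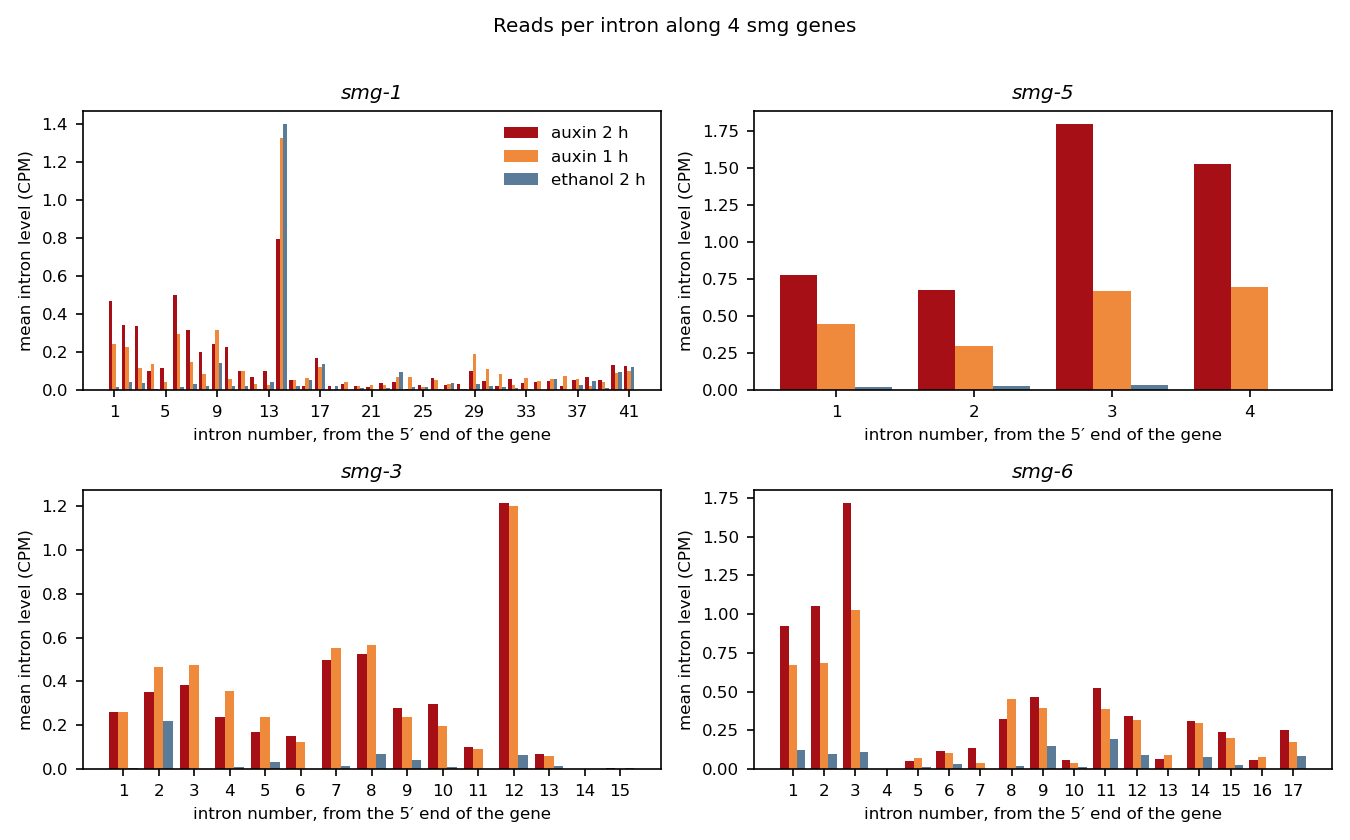
Mean CPM of each intron interval (y axis, from 0; bars are means of 6 libraries, without error bars) by intron number from the 5′ end of the gene (x axis) in smg-1, smg-5, smg-3 and smg-6, for auxin 2 h, auxin 1 h and ethanol 2 h. Intron 14 of smg-1, with 106, 198 and 201 counts in the 3 groups, is the one tested interval that is lower after 2 h of auxin. With scaling on intron counts, the sum over the smg-1 introns is called lower than ethanol, and intron 11 of smg-6 has a log2 fold change of -0.71 at 2 h that is not called (adjusted p = 0.052 by edgeR).

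No interval of smg-7 or smg-8 passed the filter, and 1 interval in each gene held most of the ethanol reads. Intron 5 of smg-7 (IV:6741330-6741376, 47 bases) had 30 counts after 2 h, 46 after 1 h and 51 with ethanol, which was 64.6% of the smg-7 intron counts with ethanol. Intron 8 of smg-8 (II:14446374-14446997, 624 bases) had 57, 59 and 46 counts, 56.1% of the smg-8 intron counts with ethanol. The first intron of smg-7 had 31, 25 and 0 counts and the first intron of smg-8 had 23, 13 and 0 counts. These intervals were picked after their values were seen and were not tested.

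Other factors of nonsense-mediated decay and of translation termination did not move as one group. Of 10 such genes, 1 was higher and 4 were lower at 2 h, and 3 were lower at 1 h, by edgeR at the same threshold. Over all genes tested, 14.5% were called higher and 20.1% lower at 2 h, and 6.93% were lower at 1 h. The DHX34 ortholog smgl-2 was at 38 ± 3.47 CPM after 2 h and 55.7 ± 4.11 CPM with ethanol (SD, n = 6 each), a log2 fold change of -0.55 (adjusted p = 3.26e-06). The gene nonu-1, an endonuclease of no-go and nonstop decay, was at 30.1 ± 1.81 CPM after 2 h and 42.9 ± 3.72 CPM with ethanol, a change of -0.51 (adjusted p = 1.63e-06). The poly(A)-binding protein gene pab-2 was at 63.7 ± 4.06 CPM after 2 h and 58.0 ± 4.31 CPM with ethanol, a change of 0.13 (adjusted p = 0.0476). The gene smg-9, named after its values were seen because its product is the partner of SMG8 in human cells, was at 9.21 ± 1.17 CPM after 2 h, 7.10 ± 0.674 CPM after 1 h and 9.94 ± 0.603 CPM with ethanol. It was lower at 1 h (-0.49, adjusted p = 0.000508) and not called at 2 h (-0.11, adjusted p = 0.294), and it was higher at 2 h than at 1 h (0.37, adjusted p = 0.0104).

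The exon junction complex marks the places where introns were removed. Of 9 of its genes and partners, 1 was higher and 8 were not called at 2 h, the RNPS1 ortholog rnp-5 with 56.8 ± 4.46 CPM after 2 h and 50.8 ± 4.25 CPM with ethanol (0.16, adjusted p = 0.0424 by edgeR). At 1 h, edgeR called 0 of the 9, 1 had an unadjusted p under 0.05, and DESeq2 called 0. Among all genes tested, edgeR called 14.5% higher and 20.1% lower at 2 h, and 10.6% in either direction at 1 h.

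Of 7 kinases of the SMG-1 family and their assembly factors, 1 was higher and 3 were lower at 2 h, and 1 was higher and 2 were lower at 1 h. The shares of all genes tested were 14.5% higher and 20.1% lower at 2 h, and 3.62% higher and 6.93% lower at 1 h. The TELO2 ortholog clk-2, which in human cells helps to stabilize these kinases, was at 29.6 ± 2.6 CPM after 2 h and 47.5 ± 3.4 CPM with ethanol (-0.69 on the log2 scale, adjusted p = 1.18e-07 by edgeR). The ATR kinase gene atl-1 was at 90.7 ± 4.51 CPM after 2 h and 113 ± 4.87 CPM with ethanol (-0.32, adjusted p = 3.49e-05). The TRRAP gene trr-1 was higher, with 122 ± 18.5 CPM after 2 h and 89.7 ± 10.1 CPM with ethanol (0.44, adjusted p = 0.00171).

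Of 32 listed genes of the wider mRNA decay machinery 31 were found, and 16 were lower and 15 not called at 2 h, with 8 lower at 1 h. Over all genes tested, 34.6% were called and 20.1% as lower at 2 h, and 6.93% were lower at 1 h. The poly(A) ribonuclease gene parn-1 was at 17.2 ± 1.11 CPM after 2 h and 30.5 ± 1.99 CPM with ethanol (-0.82 on the log2 scale, adjusted p = 2.41e-08 by edgeR). The exosome subunit gene crn-5 was at 17.2 ± 0.942 CPM after 2 h and 25.3 ± 1.58 CPM with ethanol (-0.56, adjusted p = 1.45e-07). Of 5 subunits of the phosphatase PP2A, edgeR called 0 in each comparison, with 0 at an unadjusted p under 0.05 and 0 called by DESeq2.

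The median log2 fold changes of these lists at 2 h were -0.10 for the other decay and termination factors, -0.06 for the exon junction complex, -0.17 for the kinases and their assembly factors, -0.13 for the mRNA decay machinery and -0.01 for PP2A. The 8 members were at -0.33 and all genes tested at 0.07. The lists and the members were not tested against each other.

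Of 7 genes known to make transcripts that nonsense-mediated decay removes, 2 were lower and 5 were not called at 2 h, and 1 was lower at 1 h. By edgeR, 3 of the 7 had an unadjusted p under 0.05 at 2 h, and DESeq2 called 3. The shares of all genes called lower by edgeR were 20.1% at 2 h and 6.93% at 1 h. The glucosamine-6-phosphate N-acetyltransferase gene gna-2 was at 86.2 ± 6.01 CPM after 2 h and 126 ± 15.4 CPM with ethanol (-0.55 on the log2 scale, adjusted p = 1.2e-05 by edgeR). The SR protein gene rsp-4 was at 96.4 ± 5.68 CPM after 2 h and 113 ± 7.67 CPM with ethanol (-0.23, adjusted p = 0.000814). Counts per gene do not separate the decay-sensitive transcripts of these genes from the others, so the activity of the pathway was not measured.

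Intron sums of the lists were tested in the same way. With scaling on gene counts, intron sums were higher at 2 h in 10 of 10 tested genes of the other decay and termination factors, 7 of 7 of the exon junction complex, 7 of 7 of the kinases and their assembly factors and 28 of 28 of the mRNA decay machinery. Over all intron sums tested, 74.9% were called higher. They were higher in 4 of 5 PP2A genes, pptr-1 being the exception (0.21, adjusted p = 0.114 by edgeR), and in 6 of 6 tested genes with decay-sensitive transcripts. Among markers they were higher in 16 of 16 germline genes, 10 of 10 oocyte genes and 4 of 10 tested somatic genes.

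Scaling on intron counts, run for the lists after the values were seen, gave other counts at 2 h, where 41.1% of all intron sums were called higher and 44.1% lower. Of the other decay and termination factors 7 of 10 were then higher and 1 lower, of the exon junction complex 7 of 7 were higher, and of the kinases and their assembly factors 3 of 7 were higher and 2 lower. Of the mRNA decay machinery 18 of 27 were higher and 3 lower, of PP2A 4 of 5 were higher and 1 lower, and all 6 tested genes with decay-sensitive transcripts were higher. Among markers, 15 of 16 germline genes were higher and 1 lower, 9 of 10 oocyte genes were higher, and 10 of 10 somatic genes were lower.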

How the data were processed

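The authors deposited whole-number read counts for protein-coding genes and for intron intervals in the same 18 libraries. The submitters' processing notes name Trimmomatic, cutadapt, STAR, SAMtools, Picard, featureCounts, limma and edgeR, without roles. The name of the deposited gene table says that counts were of the reverse strand. The genome build, the annotation, the rule for intron reads and their strand setting are not given in the sources used here. Of the intervals, 98.2% matched introns of the WBcel235 annotation, whose coordinates are used.

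Genes, introns and intron sums per gene (intervals of 1 gene only) were tested on all counts as deposited with edgeR 4.0.16 (R 4.3.3, limma 3.58.1): filterByExpr with a minimum count of 10, TMM, quasi-likelihood test, Benjamini-Hochberg adjustment over all features tested, calls at an adjusted p under 0.05. Intron counts used the gene table's library sizes and TMM factors, so a general shift of intron reads is kept. A count of 0 in a library allows up to 3 counts, 0.0985 to 0.164 CPM. Where a whole group had 0 counts, the fold bounds used 3 counts over the group's libraries together. Alternatives were a batch block, library sizes alone, DESeq2 1.42.0, no filter, the libraries of both groups only, leaving out each batch, TMM on the intron counts and an offset for the host gene (0.5 added). The scripts were tested on simulated counts. Batch numbers pair the libraries: within-batch correlations of deviations from group means were 0.148 to 0.678 over 18 pairs, and between batches -0.525 to 0.389 over 90. No 2 libraries of a group agreed within sampling noise (chi-square per degree of freedom 4.57 to 31.5 over 45 pairs). All 8 members are named. Introns named are the most abundant tested one of each gene, those that fell or were not called, and the 3 largest rises; the other introns (intron 2 of smg-5, 7 of smg-3, 11 of smg-6, 1 of smg-1, those of smg-7 and smg-8) were named after their values were seen, and each list gives up to 2 genes each way. The members and lists were chosen with earlier results of these data known.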

Additional observations from a re-analysis of the deposited data

Results flagged for a closer look

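Among 48 groups of 6 libraries looked at (gene level and intron counts per 1000 gene counts of each smg gene), 3 held a library far from the rest, and chance flags about 1 group in 20. The smg-5 level was 39.2 CPM in the ethanol library of batch VII, where the next highest ethanol library had 34.4 CPM. The smg-8 level was 37.3 CPM in the ethanol library of batch X, where the next lowest had 42.1 CPM. The smg-7 intron counts per 1000 gene counts were 33.4 in the auxin 1 h library of batch VIII, where the next lowest had 50.2.

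The test of auxin 2 h against auxin 1 h passed for the smg-1 gene level (-0.29 on the log2 scale), the smg-5 intron sum (1.17) and the smg-6 intron sum (0.40) by edgeR.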

How the results depend on the processing

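Of 1174 values of single genes or introns under the alternatives, 1112 kept their side of the threshold with no called value changing direction (26 of these, called in neither fit, changed sign), 42 lost their call, 12 gained one and 8 reversed. All 8 reversals of called values came with TMM on the intron counts, which by its construction removes a general rise of intron reads. At 2 h and 1 h these were the intron sums of smg-1 (-0.69 and -0.56), smg-7 (-0.42 and -0.17) and smg-8 (-0.52 and -0.63), and intron 11 of smg-6 (-0.71 and -0.81). Under that scaling 5 of 8 intron sums were called at 2 h (3 higher, 2 lower), and 3 introns between 2 h and 1 h. Of all introns tested under that scaling, 12.1% were called between 2 h and 1 h. Between 2 h and 1 h, 5 smg genes were called with the batch as a replicate block and 2 with DESeq2, against 1. The shares of all genes called in these fits were 32.7%, 9.72% and 6.89%. The block lost no call of a smg gene. The number of smg genes called at 1 h was 1 to 6 when 1 batch was left out (1 without I, 2 without VII, 4 without VIII), where fewer libraries entered each fit. Leaving out 1 batch gave 5 (without V) to 8 introns called between 2 h and 1 h. Without V, 20.6% of all introns tested were called. With no filter, more intervals were tested, and 57 smg introns were called at 1 h and 61 at 2 h. Of all 82049 introns in that fit, 29% and 31.8% were called. With only the libraries of both groups, 5 smg introns were called at 1 h and 9 at 2 h, against 15 and 16, since fewer intervals passed the filter there. The shares of all introns called there were 80.4% and 85.7%. Relative to the host gene, 4 smg intron sums were called between 2 h and 1 h, where 37.2% of all intron sums were called. Depth limits single introns: 84 of 100 had too few counts to test.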
